A study of Mus musculus with 16 samples.

Results

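This account follows 34 genes of oxidant production and antioxidant defence through 16 mouse hearts. They were taken by their symbols from the 30153 genes of the deposited table, and all 34 were found. They comprise the NADPH oxidase genes, the superoxide dismutases, catalase, the glutathione peroxidases, the peroxiredoxin and thioredoxin systems, glutathione synthesis and transfer enzymes, and the transcription factor Nrf2 (Nfe2l2) with its repressor and target genes. All animals were of the C57/BL6 strain. The C57 group held 3 adult hearts without the transgene. The other 13 hearts came from Hap-I mice, which carry haplotype I of the gene for the human angiotensin II type 1 receptor. Of these, 4 were aged Hap-I, 5 were aged Hap-I on a western diet (a diet rich in fat and sugar), and 4 were adult Hap-I. Each sample label of those 4 adult Hap-I mice also states the western diet, whereas the design text lists their group with no diet. The group is described here by its sample labels, and this conflict bears on all comparisons that use it. Diet is not stated for the C57 and aged Hap-I groups. The labels give no age in months, sex, litter, batch, promoter of the transgene or number of founder lines. The design text places separate animals in each group.

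Cells make superoxide on purpose through NADPH oxidases, membrane enzymes that move electrons from NADPH to oxygen, and angiotensin II is a well known activator of them in heart and vessel. Superoxide dismutases turn superoxide into hydrogen peroxide, and catalase, glutathione peroxidases and peroxiredoxins then remove the peroxide. Glutathione and thioredoxin supply the electrons to the glutathione peroxidases and peroxiredoxins. Nrf2 is the transcription factor that raises many of these genes under oxidative or electrophilic stress, by binding antioxidant response elements, and Keap1 holds it in the cytoplasm and directs its breakdown.

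Because Nrf2 connects many of the 34 genes, their promoters are shown before the values. RefSeq windows from 250 bases before to 50 bases after the start of transcription (GRCm38.p6) were given for 27 of the 34 genes, 33 windows in all. They were searched on both strands for TGACNNNGC, a form of the core of the antioxidant response element. Forms with another base in place of its first C were not searched for, so the counts cover this form alone. A match was present in 6 of the 33 windows (18.2%) against 12.4% of all 32851 windows of that length. By gene this was 6 of 27 (22.2%) against 14% of 27025. The 6 genes were Nfe2l2, Sod1, Srxn1, Gclm, Prdx1 and Txnrd1. The windows of Nfe2l2 (chr2:75704614-75704913, minus strand), Sod1 (chr16:90220512-90220811, plus strand) and Srxn1 (chr2:152105274-152105573, plus strand) are printed because these 3 genes both hold a match and differed between groups below. Capitals mark the match, which lies at -240, -56 and 29 bases from the start, counted at its leftmost base. The Srxn1 window also holds tgagtcagc, which differs from the form searched only by a g for its first C and is not marked. A match is a run of letters and not a measured binding site.
Nfe2l2: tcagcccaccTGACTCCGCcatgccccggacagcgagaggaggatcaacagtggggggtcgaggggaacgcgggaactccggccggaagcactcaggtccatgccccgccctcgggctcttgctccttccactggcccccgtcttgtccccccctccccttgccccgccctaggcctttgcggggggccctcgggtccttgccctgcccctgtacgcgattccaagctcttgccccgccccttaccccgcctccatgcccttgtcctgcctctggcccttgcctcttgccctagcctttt
Sod1: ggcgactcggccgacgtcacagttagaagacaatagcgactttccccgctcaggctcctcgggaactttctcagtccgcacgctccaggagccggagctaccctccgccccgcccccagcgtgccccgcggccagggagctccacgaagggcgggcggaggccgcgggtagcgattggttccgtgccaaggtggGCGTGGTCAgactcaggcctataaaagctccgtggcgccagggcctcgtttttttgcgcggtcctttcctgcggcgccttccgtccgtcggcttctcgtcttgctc
Srxn1: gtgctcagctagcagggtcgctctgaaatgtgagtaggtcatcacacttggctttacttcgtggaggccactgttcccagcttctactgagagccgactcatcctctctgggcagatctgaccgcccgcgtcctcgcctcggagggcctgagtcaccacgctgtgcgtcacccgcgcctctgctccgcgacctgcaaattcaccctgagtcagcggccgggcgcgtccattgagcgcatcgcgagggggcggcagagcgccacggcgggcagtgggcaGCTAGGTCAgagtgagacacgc

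The libraries differed in ways that touch the results. Values are TPM, a relative transcript level corrected for transcript length, divided here by a factor for each library and called scaled TPM. TPM keep no sequencing depth, so the depth is unknown and errors are spreads between hearts. Ventricular muscle markers summed to between 28797 and 41519 scaled TPM in every library. The 5 atrial muscle markers ranged from 49.3 to 3323 in C57, from 3.11 to 2216 in aged Hap-I, from 3.29 to 677 in adult Hap-I western-diet hearts, and from 2.43 to 31.3 in aged Hap-I western-diet hearts. Y-linked transcripts were present in 11 libraries. They were near 0 in replicates 1, 2 and 3 of the aged western-diet group and replicates 1 and 2 of the adult western-diet group. The rank correlation of a library's deviations with transcript length, across genes, ran from -0.192 to -0.0821 in C57, from -0.254 to 0.184 in adult western-diet, from 0.0181 to 0.276 in aged, and from -0.176 to 0.307 in aged western-diet hearts. Transcripts share 31-base words with other genes at 38.9% of words for Gpx4, 28.8% for Gstm1, 26.7% for Sod2, 17.4% for Txnip, 16.9% for Prdx5, 16.5% for Prdx2 and 15.4% for Prdx1, so the levels of these 7 genes are less certain. Of the other genes named below, the shares were 64.1% for Ftl1, 62.2% for Tagln, 51.3% for Rac1, 16.4% for Sqstm1, 14.4% for Xdh, 14% for Taldo1 and 11.1% for Gstm5, which makes these uncertain too.

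The 34 genes spanned over 3 orders of magnitude in level. Gpx4, the glutathione peroxidase that reduces lipid peroxides in membranes, had the highest median over the 16 hearts at 600 scaled TPM. It was followed by the cytosolic copper and zinc dismutase Sod1 at 365, and by the peroxiredoxins Prdx2, Prdx5, Prdx1 and Prdx3 at 341, 246, 240 and 174. At the other end stood the NADPH oxidase genes Ncf4, Cybb, Ncf1 and Nox4 with medians of 1.6, 1.33, 1.09 and 0.298. The most even gene was Keap1, whose coefficient of variation over the 16 hearts was 6.1%. Variation was largest for Nox4 (47.6%), Gpx3 (44.2%), Ncf4 (42.5%) and Txnip (33.2%).

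**Figure D1:**
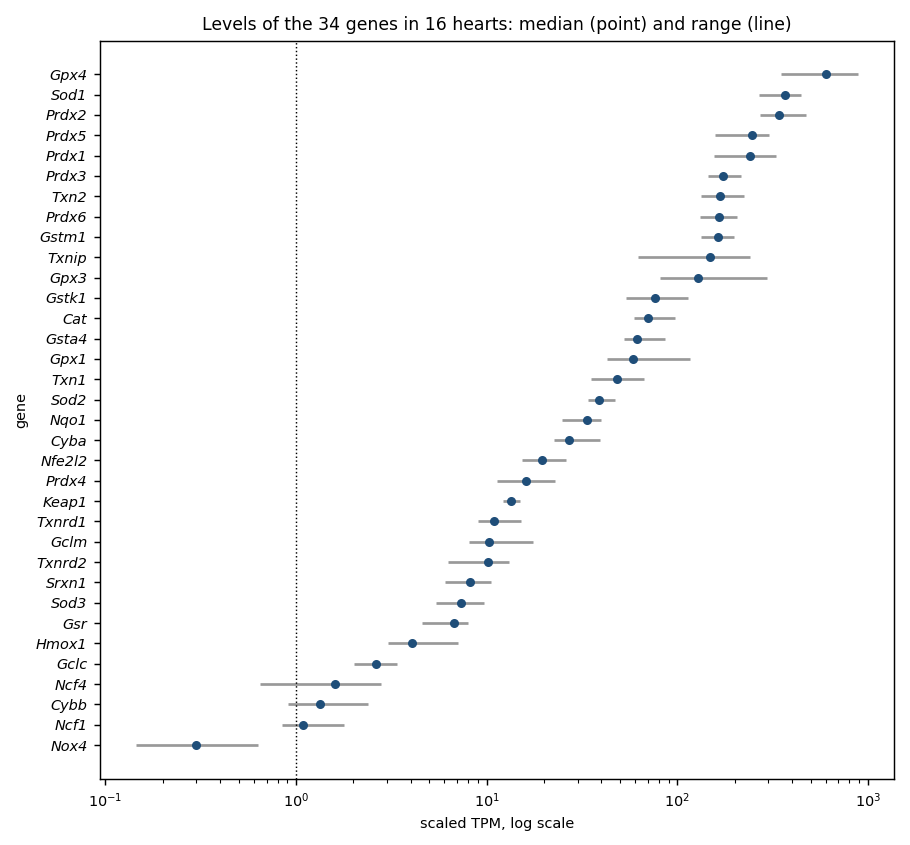
Median (point) and range (line) of each of the 34 genes over the 16 hearts, in scaled TPM on a log axis, ordered by the median. Gpx4, Sod1 and the peroxiredoxins lie at the top, and only Nox4 stays under 1 scaled TPM (dotted line) in all 16 hearts.

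Each gene was tested with limma over the 11415 genes that reached 1 TPM in at least 3 libraries, in 6 pairwise comparisons of the 4 groups. A gene was called at a Benjamini-Hochberg adjusted p under 0.05. This filter kept 33 of the 34 genes and removed Nox4. Differences are log2 fold changes of scaled TPM + 1, with standard errors of the model. All p-values are two-sided. In RNA from heart tissue of many cell types, fewer cells of a type and less RNA per cell cannot be told apart. The 3 comparisons against C57 share the same 3 C57 hearts, and in each of them the transgene differs together with age, diet or both. How many of all genes have every Hap-I heart on one side of every C57 heart was not counted. Only the shares without overlap in a single comparison are given below, for the genes kept by the filter. Y-linked transcripts were near 0 only in western-diet hearts. Their presence therefore differs in part with the diet label when a western-diet group is compared with C57 or aged hearts.

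Among the NADPH oxidase genes, transcripts of the constitutively active catalytic subunit Nox4 were higher in aged Hap-I western-diet hearts than in C57 hearts, and Cyba, the p22phox subunit that stabilises the catalytic subunits, was lower. Nox4 (chr7:87246096-87398710, GRCm38) had levels of 0.162, 0.171 and 0.145 scaled TPM in C57 hearts, compared with 0.351, 0.223, 0.198 and 0.254 in the 4 adult western-diet hearts. It had levels of 0.326, 0.271, 0.383 and 0.265 in the 4 aged hearts and 0.616, 0.379, 0.631, 0.45 and 0.592 in the 5 aged western-diet hearts. Every Hap-I heart was above every C57 heart, every aged western-diet heart was above every adult western-diet heart, and 1 aged heart (0.383) overlapped the aged western-diet range. Group means were 0.159 ± 0.0134 (SD, n = 3) in C57, 0.257 ± 0.0671 (n = 4) in adult western-diet, 0.311 ± 0.0551 (n = 4) in aged and 0.534 ± 0.112 (n = 5) in aged western-diet hearts. The Hap-I means were 1.61, 1.96 and 3.35 times the C57 mean.

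Since the filter removes Nox4, its test comes from a limma fit of all 22342 genes above 0 in any library. Against C57, aged western-diet hearts were higher by 0.40 ± 0.06 (adjusted p = 0.0013), where 9.73% of genes were called. This call held without any 1 library (adjusted p 0.000851 to 0.00883) and without scaling (0.0367). With a pseudocount of 0.1 in place of 1 the difference was 1.26 ± 0.19 (adjusted p = 0.00151), so its size on the log scale depends on the pseudocount. Against adult western-diet hearts the difference was 0.28 ± 0.05 (adjusted p = 0.0324, 0.743% of genes called). That call was lost without scaling (0.286), and without C57 replicate 1, aged replicate 1, aged western-diet replicate 1 or 3, or adult western-diet replicate 2 or 3 (0.05 to 0.0925). The diet difference in aged hearts was 0.22 ± 0.05 (adjusted p = 0.116, 0.094% of genes called), and the aged and adult western-diet groups differed from C57 by 0.17 and 0.11 (0.117 and 0.416), where 4.18% and 1.26% of genes were called. Aged and adult western-diet hearts differed by 0.06 (0.668, 0.707% of genes called). All of these levels lie under 1 TPM.

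Cyba, which also serves Nox4, had 37.1, 28.3 and 39.1 scaled TPM in C57, 25.6, 30.2, 27.9 and 22.5 in adult western-diet, 28.1, 33.1, 24.7 and 25.1 in aged, and 25.8, 27.5, 22.5, 26.7 and 25.5 in aged western-diet hearts. C57 replicates 1 and 3 were above all 13 Hap-I hearts, while C57 replicate 2 lay among them but above all 5 aged western-diet hearts. Aged western-diet hearts were lower than C57 by a log2 change of -0.42 ± 0.13 (limma adjusted p = 0.0266). This call was lost without C57 replicate 1 or 3 or aged western-diet replicate 3 (adjusted p 0.0595 to 0.133). Without C57 replicate 2, Cyba was also called lower in aged hearts (-0.45, adjusted p = 0.0448) and in adult western-diet hearts (-0.51, 0.0471). C57 replicates 1 and 3 were also the C57 libraries with the higher atrial marker level (a mean log2 of 8.84 and 7.91 against 3.01 in replicate 2). In a limma fit with that level as a covariate, the aged western-diet difference was -0.47 and was not called (adjusted p = 0.101). Whether the atrial share causes the difference was not tested.

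The phagocyte oxidase genes Cybb, Ncf1 and Ncf4 were called in none of the 6 comparisons. Cybb, the catalytic subunit gp91phox, had 1.04, 1.13 and 1.32 scaled TPM in C57, 1.35, 1.17, 1.43 and 1.73 in adult western-diet, 1.38, 1.29, 1.63 and 1.51 in aged, and 2.38, 1.19, 0.912, 0.914 and 1.65 in aged western-diet hearts. The aged western-diet group held both the highest and the lowest hearts. Its log2 differences lay between -0.06 and 0.18, each with an adjusted p of 0.503 or more. The cytosolic organiser subunits Ncf1 (p47phox, 0.847 to 1.79 in all hearts) and Ncf4 (p40phox, 0.65 to 2.79) had no adjusted p under 0.353. The 10 macrophage and monocyte markers, all measured, summed to 168 to 290 in C57, 165 to 219 in adult western-diet, 167 to 185 in aged and 163 to 232 in aged western-diet hearts, and none was called. Of 6 neutrophil markers 2 passed the filter, and Elane was at 0 in every library. The neutrophil sums were 1.74 to 8.41 in C57, 5.31 to 59.2 in adult western-diet, 2.99 to 6.26 in aged and 2.87 to 36.9 in aged western-diet hearts, and neither of the 2 tested, S100a8 and S100a9, was called. Their part in the levels of the phagocyte oxidase genes was not tested.

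**Figure D2:**
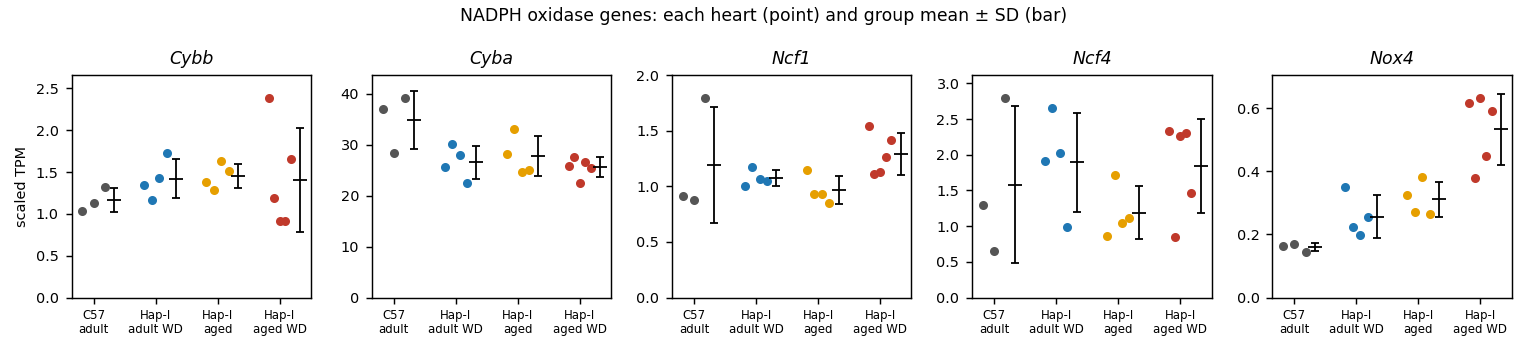
Scaled TPM of the 5 NADPH oxidase genes by group, each on its own axis from 0; points are hearts and bars are the group mean ± SD. For Nox4 the C57 hearts sit between 0.145 and 0.171, under all 13 Hap-I hearts, and the aged western-diet hearts reach 0.631.

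Of the superoxide dismutases, Sod1 was lower in aged Hap-I than in C57 hearts, and the mitochondrial manganese enzyme Sod2 and the extracellular enzyme Sod3 were called in no comparison. Sod1 had 411, 431 and 444 scaled TPM in C57, 406, 422, 390 and 314 in adult western-diet, 329, 347, 281 and 309 in aged, and 268, 381, 326, 378 and 352 in aged western-diet hearts. No aged or aged western-diet heart reached the lowest C57 heart, and only adult western-diet replicate 2 did. The log2 change in aged against C57 hearts was -0.44 ± 0.13, a fold of 1.36 (limma adjusted p = 0.0445), and in aged western-diet hearts it was -0.34 ± 0.13 (0.0673). The first of these was lost without any 1 of the C57 hearts, aged replicates 1, 3 or 4, aged western-diet replicate 3, or adult western-diet replicates 1 or 3 (adjusted p 0.0539 to 0.149).

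Sod2 had 38.9, 47.2 and 33.9 scaled TPM in C57, 39.1, 37.1, 39.8 and 45.9 in adult western-diet, 39.8, 44.8, 38.5 and 43.3 in aged, and 38.1, 36.1, 39.9, 35.6 and 35 in aged western-diet hearts. The C57 hearts alone covered the whole range. Its log2 differences ran from -0.17 to 0.07, with adjusted p-values of 0.407 or more. Sod3 lay between 5.41 and 9.73 over all hearts, with differences from -0.16 to -0.01 and adjusted p-values of 0.49 or more.

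Catalase and the 3 glutathione peroxidases, the enzymes that reduce hydrogen peroxide or lipid peroxides, were called in none of the 6 comparisons. Catalase (Cat) had 64, 80.7 and 66.1 scaled TPM in C57, 80.5, 62.3, 72 and 97.6 in adult western-diet, 72.6, 70.9, 59.2 and 66.8 in aged, and 70, 64.2, 80.1, 72.2 and 65.6 in aged western-diet hearts. All 4 groups overlapped, and the lowest adjusted p was 0.387. The cytosolic selenoenzyme Gpx1 had 79.4, 56.2 and 98.8 in C57, 59.8, 117, 62.2 and 57.8 in adult western-diet, 57.2, 54.3, 57.6 and 46.8 in aged, and 62.6, 65, 43, 89.8 and 51.8 in aged western-diet hearts. Its largest difference was -0.49 ± 0.26 in aged against C57 hearts (adjusted p = 0.228).

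Gpx4 ranged from 348 in adult western-diet replicate 4 to 890 in replicate 2 of the same group, with no adjusted p under 0.552. Among the 16 libraries, replicate 2 had the lowest rank correlation with transcript length (-0.254), and replicate 4 was the one adult western-diet library above 0 (0.184), a relation whose part in the levels of this short transcript was not tested. Gpx3, the secreted plasma form, ranged from 81.6 to 296. Its 3 values above 200, in C57 replicates 1 and 3 (296 and 259) and aged replicate 3 (234), belonged to the 3 libraries with the highest atrial marker level (a mean log2 of 8.84, 7.91 and 8.28). This coincidence was picked out after the values were seen, and its part in any difference was not tested. Gpx3 had its largest difference in aged against C57 hearts, at -0.66 ± 0.40 (adjusted p = 0.298). Without C57 replicate 2, at 81.6, Gpx3 was called lower in aged hearts (-1.24, adjusted p = 0.0331) and in aged western-diet hearts (-1.16, 0.0248).

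The peroxiredoxins reduce peroxides with a reactive cysteine, and Prdx2 and Prdx4 were lower in aged Hap-I western-diet than in C57 hearts. Prdx2 (chr8:84969587-84974834), a cytosolic form, had 436, 435 and 473 scaled TPM in C57, 376, 387, 368 and 304 in adult western-diet, 338, 371, 297 and 324 in aged, and 278, 305, 271, 345 and 292 in aged western-diet hearts. All 13 Hap-I hearts were below all 3 C57 hearts. The means were 448 ± 21.5 (SD, n = 3) in C57, 359 ± 37.6 (n = 4), 332 ± 31 (n = 4) and 298 ± 29.1 (n = 5). Against C57, aged western-diet hearts were lower by a log2 change of -0.59 ± 0.11, a fold of 1.5 (limma adjusted p = 0.00218). Aged hearts were lower by -0.43 ± 0.11 (0.0246), a call lost without C57 replicate 1 or 3 or aged replicate 3 or 4 (adjusted p 0.0691 to 0.111). Adult western-diet hearts differed by -0.32 ± 0.11 (0.116).

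Prdx4 (chrX:155323918-155340754), the form of the endoplasmic reticulum, had 22.9, 18.8 and 20.4 in C57, 17.9, 17.7, 16 and 11.8 in adult western-diet, 16.6, 18, 16.2 and 14.9 in aged, and 11.3, 14.5, 12.5, 11.8 and 12.5 in aged western-diet hearts. Here too no Hap-I heart reached the lowest C57 heart, and every aged western-diet heart was below every aged heart. The means were 20.7 ± 2.08, 15.9 ± 2.81, 16.4 ± 1.30 and 12.5 ± 1.22 (SD, same n). The log2 change in aged western-diet against C57 hearts was -0.68 ± 0.12, a fold of 1.61 (limma adjusted p = 0.0018). The diet difference in aged hearts was -0.37 ± 0.11 (adjusted p = 0.141), and adult western-diet and aged hearts differed from C57 by -0.38 and -0.31 (0.107 and 0.124). The aged difference was called without adult western-diet replicate 4 (0.0468) and in a fit of only the groups compared (0.0404). Without that adult replicate, Prdx4 was also called lower in aged western-diet than in adult western-diet hearts (-0.43, 0.0252). The aged western-diet calls of Prdx2 and Prdx4 were kept without any 1 of the 16 libraries (adjusted p up to 0.0162 and 0.0155) and under all 13 other settings tried, but for Prdx2 the change shrank to -0.35 after quantile normalization.

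The other 4 peroxiredoxins were called in no comparison. The cytosolic Prdx1 ranged from 156 to 330, the mitochondrial Prdx3 from 144 to 217, the mitochondrial and peroxisomal Prdx5 from 158 to 301, and the single-cysteine form Prdx6 from 132 to 205. In aged against adult western-diet hearts 3 of the 4 had a negative log2 difference and Prdx5 had 0.04, and for Prdx3 it was -0.34 ± 0.10 (adjusted p = 0.0913). On the western diet, the difference of Prdx3 between aged and adult hearts was -0.29 ± 0.10 (adjusted p = 0.12), the lowest adjusted p of any of the 33 genes in that comparison. Leaving out aged western-diet replicate 4 brought it to 0.0451. Prdx1 was called lower in aged than in C57 hearts in a fit of only these groups (-0.39, limma adjusted p = 0.0151). For Prdx5 no Hap-I heart (265 or less) reached the lowest C57 heart (270), although it was called in no comparison.

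Sulfiredoxin (Srxn1), which repairs peroxiredoxins whose cysteine has been over-oxidised, was lowest in the aged Hap-I hearts without the western diet label. It had 8, 7.82 and 10.2 scaled TPM in C57, 8.45, 9.3, 9.86 and 8.89 in adult western-diet, 7.07, 6.81, 6.06 and 6.3 in aged, and 7.91, 10.3, 8.84, 10.5 and 7.84 in aged western-diet hearts. The 4 aged hearts lay below all 12 others. Aged hearts were lower than adult western-diet hearts by -0.42 ± 0.10, a fold of 1.34 (limma adjusted p = 0.0496). The call was lost under 9 of the 13 other settings, and without C57 replicates 1 or 2, any 1 aged heart, aged western-diet replicate 3, or adult western-diet replicates 1, 2 or 3 (adjusted p 0.0517 to 0.155). Aged western-diet hearts had a log2 difference of 0.41 ± 0.10 from aged hearts, the lowest adjusted p of the 33 genes in the diet comparison (0.0793), and aged differed from C57 hearts by -0.35 ± 0.11 (0.0582). The last was called without aged western-diet replicate 4 (0.0457) or 5 (0.0482).

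In the thioredoxin system, Txnip and Txn1 were lower in aged Hap-I than in C57 hearts, and Txnrd2 was lower in aged western-diet hearts. Txnip, the thioredoxin-interacting protein that binds and inhibits thioredoxin and also limits glucose uptake, had 172, 221 and 173 scaled TPM in C57 and 240, 209, 113 and 150 in adult western-diet hearts. It had 148, 61.9, 68.6 and 94.4 in aged and 164, 147, 190, 141 and 149 in aged western-diet hearts. Aged replicates 2, 3 and 4 were below every other heart, whereas aged replicate 1 lay within the aged western-diet range. Aged against C57 hearts gave a log2 change of -1.09 ± 0.27, a fold of 2.12 (limma adjusted p = 0.0207), the largest change among the 33 genes in any comparison. It was lost without any 1 C57 heart or without aged replicate 3 (adjusted p 0.062 to 0.0646). The diet difference in aged hearts was 0.83 ± 0.24 (adjusted p = 0.123). Aged against adult western-diet hearts gave -0.95 ± 0.25 (0.0611), and this was called without aged replicate 1 (0.0326) or adult western-diet replicate 3 (0.0445) or 4 (0.0461).

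Cytosolic thioredoxin, Txn1, had 61.7, 53.3 and 62.7 scaled TPM in C57, 51.2, 66.7, 50.9 and 46.3 in adult western-diet, 40.5, 45.7, 38.3 and 40.9 in aged, and 35.2, 50.6, 37.2, 57.8 and 43.8 in aged western-diet hearts. The aged hearts lay below all C57 and all adult western-diet hearts. The log2 change in aged against C57 hearts was -0.51 ± 0.16, a fold of 1.42 (limma adjusted p = 0.0485). It was lost without any 1 C57 or aged heart, aged western-diet replicate 5, or adult western-diet replicates 1 or 3 (adjusted p 0.0515 to 0.165). In aged western-diet hearts the difference from C57 was -0.41 ± 0.15 (adjusted p = 0.0614), which was called without aged western-diet replicate 4 (0.0182) or adult western-diet replicate 2 (0.0431).

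Txnrd2, the mitochondrial thioredoxin reductase, had 10.8, 13.1 and 11.7 in C57, 10.5, 10.1, 11.1 and 9.92 in adult western-diet, 10, 11.1, 8.85 and 10 in aged, and 10.5, 10.2, 8.82, 9.2 and 6.29 in aged western-diet hearts. All 5 aged western-diet hearts were below all 3 C57 hearts, by a narrow margin in replicate 1. The log2 change between these groups was -0.38 ± 0.13, a fold of 1.30 (limma adjusted p = 0.042). It was lost without any 1 C57 heart, aged replicates 1 or 4, aged western-diet replicates 3 or 4, or adult western-diet replicates 1 or 3 (adjusted p 0.0505 to 0.146). Mitochondrial thioredoxin Txn2 (133 to 224 over all hearts) and the cytosolic reductase Txnrd1 (9.05 to 15.2) had no adjusted p under 0.513.

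Among the glutathione genes, glutathione reductase (Gsr), which regenerates reduced glutathione from its oxidised form, was the only one of the 33 genes called higher in any comparison, while the transferases Gstk1 and Gstm1 were lower. Gsr (chr8:33652523-33698163) had 4.79, 5.34 and 4.6 scaled TPM in C57, 6.95, 7.46, 6.32 and 7.99 in adult western-diet, 7.21, 5.06, 5.96 and 6.47 in aged, and 7.83, 7.67, 6.94, 7.56 and 5.82 in aged western-diet hearts. All 9 western-diet hearts were above all C57 hearts, and 1 aged heart (5.06) overlapped them. Aged western-diet hearts were higher than C57 by a log2 change of 0.46 ± 0.11, a fold of 1.38 (limma adjusted p = 0.00888), and this was kept without any 1 library (up to 0.0483). It was lost without scaling (0.201), with the atrial covariate (0.0535) and among the hearts with Y-linked transcripts (0.165). Adult western-diet hearts were higher by 0.47 ± 0.12 (0.0387). That call was lost without C57 replicate 1 or 3, aged replicate 3 or 4, or adult western-diet replicate 1, 2 or 4 (adjusted p 0.0511 to 0.15). Aged hearts differed by 0.27 ± 0.12 (0.137).

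Gstk1 (chr6:42245935-42250447), the kappa transferase of mitochondria and peroxisomes, had 109, 114 and 89.3 scaled TPM in C57, 74.8, 80.6, 82.9 and 65.2 in adult western-diet, 77.9, 84.6, 66.2 and 75 in aged, and 53.7, 73.7, 59.1, 80.4 and 64.7 in aged western-diet hearts. All 13 Hap-I hearts were below all C57 hearts. The log2 change in aged western-diet against C57 hearts was -0.65 ± 0.13, a fold of 1.57 (limma adjusted p = 0.0042), kept without any 1 library (up to 0.0254) but lost among the hearts with Y-linked transcripts (0.0721). In aged hearts it was -0.45 ± 0.14 (0.0507), and it was called without aged replicate 2 (0.048), aged western-diet replicate 1 (0.0385) or 4 (0.0357), or adult western-diet replicate 4 (0.0416). The aged difference was also called with the atrial covariate (-0.52, 0.0478) and in a fit of only the groups compared (0.0245). In adult western-diet hearts the change was -0.45 ± 0.14 (0.083), and it was called without scaling (-0.63, 0.0303).

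Gstm1, an abundant cytosolic transferase of the mu class, had 178, 198 and 183 in C57, 168, 172, 173 and 172 in adult western-diet, 141, 152, 138 and 149 in aged, and 133, 169, 146, 158 and 142 in aged western-diet hearts. All 13 Hap-I hearts were below all C57 hearts, and the aged hearts were also below all adult western-diet hearts. The log2 change against C57 was -0.36 ± 0.09 in aged (limma adjusted p = 0.0207) and -0.32 ± 0.09 in aged western-diet hearts (0.0168). Quantile normalization reduced them to -0.19 and -0.15, with adjusted p-values of 0.15 and 0.166. The aged call was lost without any 1 C57 heart or aged replicate 1 or 3 (adjusted p 0.052 to 0.0679), and the aged western-diet call without C57 replicate 2 (0.0682) or 3 (0.0513). The alpha transferase Gsta4, which detoxifies a product of lipid peroxidation, ranged from 52.3 to 85.9 and had no adjusted p under 0.344.

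The subunits of glutamate-cysteine ligase, the enzyme that commits cysteine to glutathione, were called in no comparison. The catalytic subunit Gclc ranged from 2.02 to 3.38, and its 3 highest hearts, at 3.38, 3.28 and 3.03, were 2 aged western-diet hearts and 1 adult western-diet heart. Its largest difference was 0.25 ± 0.09 between aged western-diet and aged hearts (adjusted p = 0.209). The modifier subunit Gclm ranged from 8.07 to 17.4 and had no adjusted p under 0.169.

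Transcripts of Nrf2 itself (Nfe2l2, chr2:75675513-75704641) were lower in both western-diet groups than in C57 hearts, those of its repressor Keap1 hardly varied, and of its classical targets Hmox1 was lower in aged hearts while Nqo1 was called in no comparison. Nfe2l2 had 24, 23.7 and 26 scaled TPM in C57, 16.3, 15.3, 17.3 and 20.4 in adult western-diet, 17.2, 19.4, 20.3 and 21.5 in aged, and 19.4, 17.7, 22.5, 18 and 18.9 in aged western-diet hearts. No Hap-I heart reached the lowest C57 heart. The means were 24.5 ± 1.24 (SD, n = 3), 17.3 ± 2.24 (n = 4), 19.6 ± 1.83 (n = 4) and 19.3 ± 1.94 (n = 5). The log2 change against C57 was -0.49 ± 0.11 in adult western-diet hearts, a fold of 1.40 (limma adjusted p = 0.0234). It was -0.34 ± 0.10 in aged western-diet hearts (0.031) and -0.31 ± 0.11 in aged hearts (0.0749). The adult western-diet call was lost without C57 replicate 1 or 3 or adult western-diet replicates 1, 2 or 3 (0.0509 to 0.107). The aged western-diet call was lost without any 1 C57 heart or aged western-diet replicates 2 or 4 (0.0528 to 0.12). The aged difference was called without adult western-diet replicate 4 (0.0451) and in a fit of only the groups compared (0.0354). It was also called with a correction for transcript length (-0.38, 0.0221), and with that correction and a Y-linked covariate (0.0281). The Nfe2l2 promoter, printed above, holds an antioxidant response element match, and no binding was measured.

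Keap1 had 14.3, 12.8 and 13.4 in C57, 12.6, 12.7, 13.7 and 13.9 in adult western-diet, 13.8, 13.4, 12.6 and 12.2 in aged, and 13.5, 12.8, 14.9, 14.5 and 12.4 in aged western-diet hearts. Its log2 differences ran from -0.06 to 0.07, each with a standard error of 0.07 to 0.08, and the lowest adjusted p was 0.696. Nqo1, the quinone reductase widely used as a readout of Nrf2, had 29.5, 39.1 and 37.9 in C57, 39.7, 32.8, 39.3 and 31.6 in adult western-diet, 34.2, 37.5, 29.7 and 36 in aged, and 29.1, 26, 24.8, 36.7 and 31.5 in aged western-diet hearts. Replicates 2 and 3 of the aged western-diet group were the lowest of all 16, but the groups overlapped. The largest differences of Nqo1 were -0.27 ± 0.12 and -0.26 ± 0.13, for aged western-diet against adult western-diet and against C57 hearts (adjusted p = 0.233 and 0.183).

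Heme oxygenase (Hmox1), which breaks down heme and is induced by Nrf2, had 4.68, 4.78 and 7.11 in C57, 3.74, 4.74, 3.66 and 4.62 in adult western-diet, 3.04, 3.16, 4.05 and 3.22 in aged, and 3.94, 3.26, 5.03, 4.87 and 4.1 in aged western-diet hearts. C57 replicate 3 stood apart at 7.11, and the 4 aged hearts were all below the C57 hearts. The log2 change in aged against C57 hearts was -0.56 ± 0.15, a fold of 1.48 (limma adjusted p = 0.0238). Without C57 replicate 3 it was lost (0.136), as it was without aged replicate 1 (0.0601) or 4 (0.065). Red cell markers, which bear on heme, summed to 2675 to 4659 in C57 and 2282 to 3989 in aged hearts. The sums spread more widely in adult western-diet hearts (2164 to 8401) and aged western-diet hearts (1782 to 7678). None of the 5 red cell markers tested was called in any comparison. The part of blood content in the levels of the antioxidant genes was not tested.

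**Figure D3:**
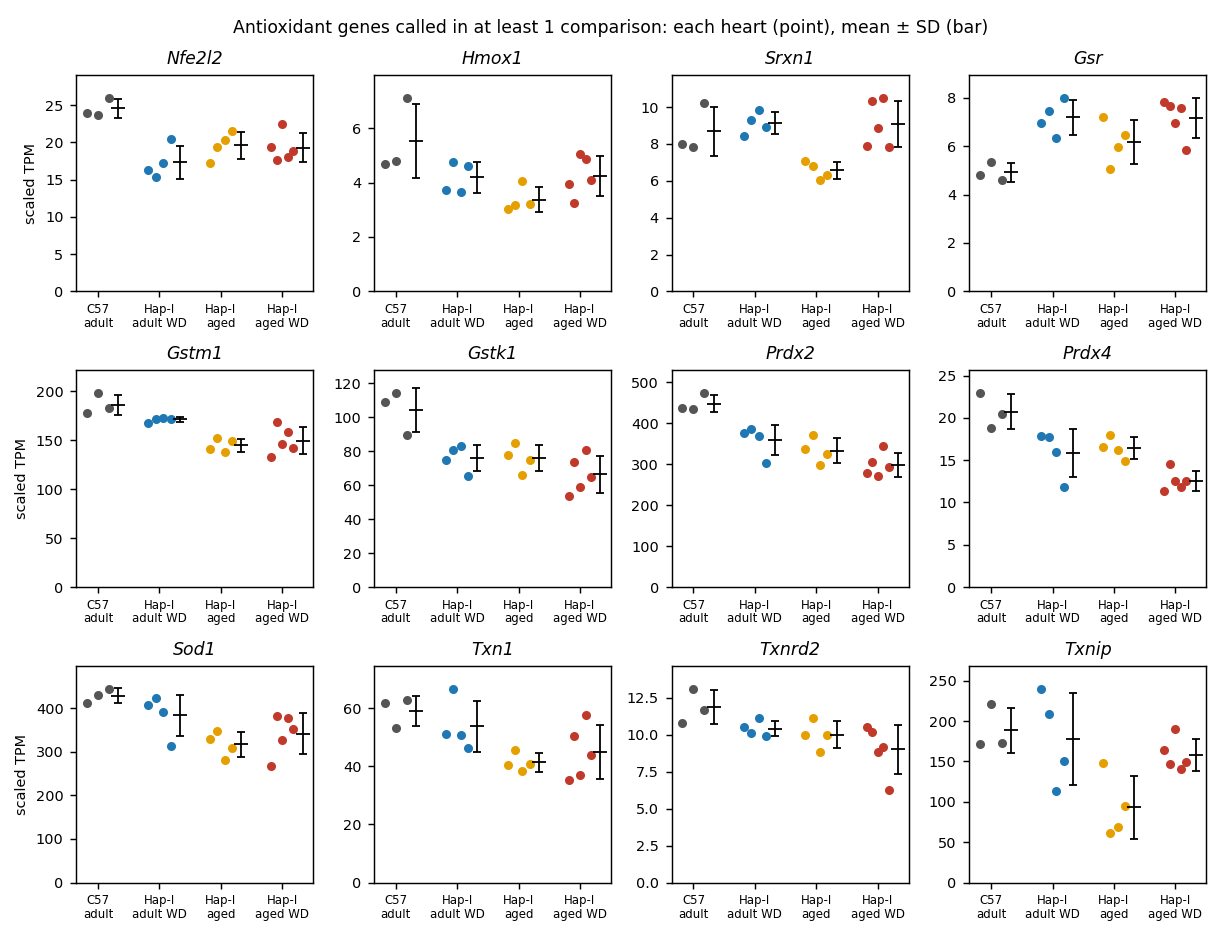
Scaled TPM of the 12 antioxidant genes called in at least 1 comparison, by group, each on its own axis from 0; points are hearts and bars the group mean ± SD. The C57 hearts lie above all Hap-I hearts for Nfe2l2, Gstm1, Gstk1, Prdx2 and Prdx4 and below all western-diet hearts for Gsr, while Srxn1 and Txnip are lowest in the aged group. Prdx5, called in no comparison and not drawn, also had all C57 hearts above all Hap-I hearts.

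Counted over the 33 genes tested, diet within aged Hap-I hearts gave no call by limma, where 0.166% of all genes were called, 0.0788% higher and 0.0876% lower. At an unadjusted limma p under 0.05 there were 4 genes, 3 with a positive and 1 with a negative difference. The median log2 change of the 33 genes was 0.07 against a median near 0 over all genes, and 21 of the 33 were positive. Groups did not overlap for Srxn1 and Gclc on the higher and Prdx4 on the lower side, where over all genes 3.24% and 3.9% did not. Age on the western diet gave no call either, with 2.39% of all genes called (1.67% higher and 0.718% lower), and 7 genes had an unadjusted p under 0.05, 1 positive and 6 negative. There, 27 of 33 differences were negative, with a median of -0.13, and the groups overlapped for all 33 (over all genes 3.31% higher and 3% lower did not overlap). Aged against adult western-diet hearts gave 1 call, Srxn1 (3.03% of the 33, against 2.14% of all genes, 1.25% higher and 0.885% lower). Groups did not overlap for 7 genes that were lower and none that was higher, where over all genes 7.6% and 8.39% did not.

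Aged against C57 hearts gave 6 calls, all lower: Sod1, Hmox1, Gstm1, Txn1, Txnip and Prdx2. This was 18.2% of the 33 genes, where 4.06% of all genes were called lower and 7.17% higher (11.2% either way). In 29 of the 33 the difference was negative, and the median was -0.26 against -0.01 over all genes. The groups did not overlap for 13 genes that were lower and none that was higher, where over all genes 16.1% and 18% did not. Without scaling the median of all genes moved to 0.13, that of the 33 genes was -0.09, and none of the 6 calls was kept. With quantile normalization 1 call, Hmox1, was kept.

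Adult western-diet against C57 hearts gave 2 calls, Nfe2l2 lower and Gsr higher (6.06% of the 33, against 3.45% of all genes, 1.95% higher and 1.5% lower), with a median of -0.06. Groups did not overlap for 6 genes that were lower and 1 that was higher, where over all genes 8.2% and 9.83% did not. Both were lost without scaling, with a covariate for Y-linked transcripts and with a covariate for atrial markers.

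Aged western-diet against C57 hearts gave 8 calls: Gsr higher, and Nfe2l2, Cyba, Gstm1, Gstk1, Txnrd2, Prdx2 and Prdx4 lower. The share called, 24.2%, was near the 21.9% of all genes. The share called lower was 21.2% against 9.57%, and the share called higher 3.03% against 12.3%. Groups did not overlap for 9 genes that were lower and 1 that was higher, where over all genes 11.2% and 12.2% did not. The median was -0.25 against a value near 0 over all genes, but -0.08 after quantile normalization. Without scaling 3 of the 8 calls were kept (Gstk1, Prdx2 and Prdx4). With the atrial covariate the same 3 were kept, and a fit restricted to the 11 hearts in which Y-linked transcripts were present also kept 3 (Txnrd2, Prdx2 and Prdx4).

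**Figure D4:**
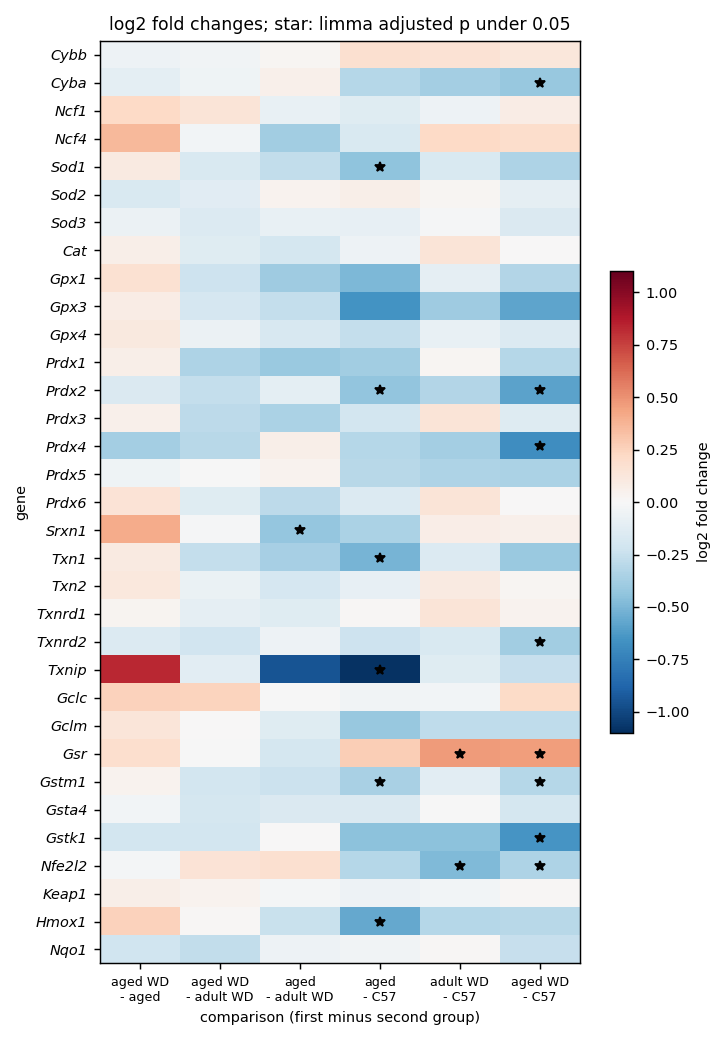
Log2 fold changes (colour) of the 33 genes tested in the 6 comparisons, each named as its first minus its second group; a star marks a limma adjusted p under 0.05. The 17 stars fall mainly in the aged and aged western-diet comparisons with C57, and 15 of them are on negative changes.

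The F test of limma for any difference among the 4 groups called 8 of the 33 genes, where 18.3% of all genes were called. They were Prdx4 (adjusted p = 0.00883), Prdx2 (0.0105), Gstk1 (0.0205), Gstm1 (0.0232), Gsr (0.0245), Srxn1 (0.0247), Txnip (0.0255) and Nfe2l2 (0.0285).

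**Figure D5:**
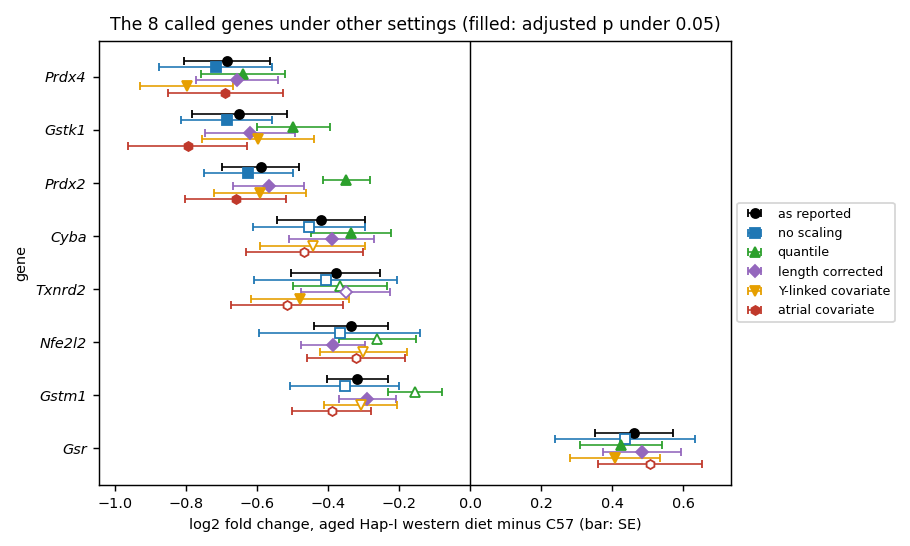
Log2 fold changes (points, with standard errors as bars) of the 8 genes called between aged western-diet and C57 hearts, as reported and under 5 other settings; filled symbols have a limma adjusted p under 0.05. All points of a gene lie on the same side of 0, and Prdx4, Gstk1 and Prdx2 are filled under all 6 settings.

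Other genes of the same pathways were described from lists of 27 glutathione enzymes (25 tested), 23 Nrf2 partners and targets (22 tested), 25 thioredoxin-fold, selenoprotein and repair genes (24 tested) and 17 oxidant sources (9 tested). None of these was called by diet in aged hearts. In aged western-diet against C57 hearts, 7 of the 25 glutathione enzymes were lower and none higher (28% called, against 21.9% of all genes, 9.57% lower and 12.3% higher). The theta transferases Gstt2 and Gstt1 changed by -1.11 ± 0.13 (limma adjusted p = 0.000143) and -0.58 ± 0.11 (0.0023), the mu transferase Gstm5 by -0.59 (0.00374) and the endoplasmic reticulum peroxidase Gpx7 by -0.62 (0.00384). All 4 were kept without any 1 library. In aged against C57 hearts 8 of the 25 were lower and none higher (32% called lower, against 4.06% of all genes lower and 7.17% higher), led by Gpx7 (-0.62, 0.0102), Gstt1 (-0.49, 0.0154), Gstt2 (-0.54, 0.0187) and Chac1 (-1.02, 0.024), an enzyme that degrades glutathione. Those calls were lost without C57 replicate 1 (Gpx7 0.0528, Gstt1 0.0734, Gstt2 0.0696) or replicate 3 (Gpx7 0.0529, Gstt2 0.0559, Chac1 0.131), for Gstt2 also without aged replicate 1 (0.051) or 4 (0.0537), and for Chac1 without C57 replicate 2 (0.0658) or aged replicate 3 (0.0688) or 4 (0.0541). In adult western-diet against C57 hearts Gstt2 (-0.91, 0.00219) and Gstt1 (-0.58, 0.0143) were lower, the latter lost without C57 replicate 1 (0.0788). Gpx8, a further endoplasmic reticulum peroxidase, was lower in aged than in adult hearts on the western diet (-0.36, 0.0467), a call lost without any 1 of 14 of the 16 libraries, all but aged western-diet replicates 2 and 4 (0.0507 to 0.123).

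Among the Nrf2 partners and targets, 3 were higher and 7 lower of 22 in aged western-diet against C57 hearts. The share called was 45.5% against 21.9% of all genes (31.8% lower, with 9.57% of all genes called lower and 12.3% higher). The 3 higher genes were not among the 4 of smallest p. The list holds partners as well as targets, so its counts are not for targets alone. The 4 of smallest p were the epoxide hydrolase Ephx1 (-0.93, 0.00294), the autophagy receptor Sqstm1 (-0.78, 0.00609), the pentose phosphate enzyme Taldo1 (-0.32, 0.0105) and Osgin1 (-0.54, 0.0116), of which Taldo1 was lost without C57 replicate 1 (0.0525) and Osgin1 without C57 replicate 3 (0.0625). In aged against C57 hearts 4 were lower and none higher (18.2%, against 4.06% of all genes called lower). These were Sqstm1 (-0.82, 0.0125), Osgin1 (-0.51, 0.0312) and both chains of the iron store ferritin, Ftl1 (-0.63, 0.0309) and Fth1 (-0.52, 0.0448). Without C57 replicate 3 all 4 were lost (0.0632 to 0.166). Without C57 replicate 1 or aged replicate 3 or 4 all but Sqstm1 were lost (0.0707 to 0.121). Ftl1 was also lost without aged replicate 1 (0.0574), and Fth1 without C57 replicate 2, aged replicate 1 or 2, aged western-diet replicate 3, or adult western-diet replicate 1 or 3 (0.0504 to 0.094). Ephx1 was also lower in adult western-diet hearts (-0.996, 0.0113), lost without C57 replicate 3 (0.062). The export pump Abcc1 was higher in aged than in adult western-diet hearts (0.66, 0.0495), a call lost without any 1 C57 or aged heart, aged western-diet replicate 3, or adult western-diet replicates 1, 2 or 3 (0.0554 to 0.15).

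Of the thioredoxin-fold, selenoprotein and repair genes, 2 were higher and 4 lower of 24 in aged western-diet against C57 hearts. The share called, 25%, was near the 21.9% of all genes (16.7% lower, against 9.57%). Ccs, the chaperone that loads copper into Sod1, changed by -0.60 ± 0.08 (limma adjusted p = 0.000397), kept without any 1 library. The methionine sulfoxide reductases Msrb3 and Msra, which repair oxidised methionine, were higher by 0.52 (0.00769) and 0.34 (0.0288), and Sesn1 was lower (-0.52, 0.0305). Msrb3 was lost without C57 replicate 3 (0.0541), Msra without C57 replicate 1 or 3 or aged western-diet replicate 2, 3 or 4 (0.0511 to 0.131), and Sesn1 without C57 replicate 1 or 2 or aged western-diet replicate 2 (0.0528 to 0.127). In aged against C57 hearts Msrb3 (0.49, 0.0243) and Msra (0.40, 0.0259) were higher and Ccs lower (-0.29, 0.0424). Each of these 3 was lost without C57 replicate 1 or 3 or aged replicate 4 (0.0701 to 0.173), Msrb3 also without aged replicate 3 (0.0657) and Msra without aged replicate 1 (0.0632). Ccs was also lost there without aged replicates 1, 2 or 3, aged western-diet replicate 3, or adult western-diet replicates 1 or 3 (0.05 to 0.118). In adult western-diet hearts Ccs was lower than in C57 (-0.36, 0.0314), lost without C57 replicate 1 or 3 or adult western-diet replicate 2 or 3 (0.0641 to 0.143).

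Of the 9 other oxidant sources, xanthine dehydrogenase (Xdh) was lower in adult western-diet than in C57 hearts (-1.13 ± 0.25, limma adjusted p = 0.0224) and higher in aged than in adult hearts on the western diet (0.95 ± 0.22, 0.0345). The first call was lost without any 1 C57 heart or adult western-diet replicate 2 or 3 (0.0523 to 0.103), the second without aged western-diet replicates 1, 3 or 5 or adult western-diet replicates 1, 2 or 3 (0.0506 to 0.123). Rac1, the small GTPase that joins the active oxidase complex, was lower in aged than in C57 hearts (-0.27 ± 0.08, 0.0447). It was lost without any 1 C57 or aged heart, aged western-diet replicate 3, or adult western-diet replicate 1 or 3 (0.0512 to 0.154). Markers of other cells also differed between the aged western-diet and C57 groups, where 9.57% of all genes were called lower and 12.3% higher. Of 6 fibroblast markers Dcn (-0.62, 0.00533) and Dpt (-0.55, 0.00791) were lower, of the 5 smooth muscle and pericyte markers tested Myh11 (-1.5, 0.000271) and Tagln (-1.20, 0.00582), and of the 5 atrial markers 4. The other 3 smooth muscle and pericyte markers, Acta2, Rgs5 and Pdgfrb, differed by -0.03, 0.08 and -0.60 and were not called. The sum of the list was 180 to 189 in C57, 146 to 189 in adult western-diet, 168 to 179 in aged and 134 to 239 in aged western-diet hearts, so the groups overlapped. The fibroblast markers summed to 356 to 404 in C57, 246 to 324 in adult western-diet, 251 to 330 in aged and 213 to 297 in aged western-diet hearts, so no Hap-I heart reached the C57 range. Of 6 ventricular muscle markers 1 was called lower in aged western-diet than in C57 hearts, as was 1 of 3 adipocyte markers tested. Of 2 skeletal muscle markers tested 1 was higher. By diet in aged hearts, 1 of the 5 smooth muscle and pericyte markers was lower, where 0.0876% of all genes were called lower. In aged against C57 hearts 1 of 6 fibroblast markers was lower (4.06% of all genes). In adult western-diet against C57 hearts 1 of the 5 smooth muscle and pericyte markers was lower (1.5%). In aged against adult western-diet hearts 1 of 6 ventricular markers was higher (1.25%). No endothelial marker (5 tested) or hepatocyte marker (2 tested) was called in any comparison. The part of these cell types in the differences of the antioxidant genes was not tested.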

How the data were processed

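The authors deposited 1 table of TPM per gene for the 16 hearts. The submitters' processing notes name kallisto, DESeq2 and GRCm38 without versions. Per the labels' protocols, polyadenylated RNA was made into stranded libraries. A gene was kept if 3 libraries or more reached 1 TPM (11415 genes). Median-of-ratios size factors (0.682 to 1.24) gave scaled TPM. A limma 3.58.1 (R 4.3.3) model with a variance trend and a mean for each group used log2(scaled TPM + 1) of all 16 libraries, after a test on simulated data. P-values were adjusted by Benjamini-Hochberg over all genes within a comparison. TPM keep no depth, and deposited sums ran from 942090 to 959772, with 31.1% to 46.1% in mitochondrial transcripts. Values of every heart are given for each of the 34 genes called in a comparison and for 11 fixed genes, and other pathway genes are named when called, at most 4 per list and comparison. The 34 genes, the lists and the settings were chosen with earlier results of these data known. Alternatives changed the scaling, pseudocount, filter, variance model, groups fitted, covariates (Y-linked transcripts, atrial markers) and length trend, or left out 1 library. A fit restricted to the 11 hearts in which Y-linked transcripts were present, the length correction with a Y-linked covariate, and the fits of Nox4 were added after the data were seen. The human transgene was not analysed here.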

Additional observations from a re-analysis of the deposited data

Results flagged for a closer look

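In groups of 4 or 5 hearts, a single heart was singled out where its gap to the nearest other heart took up most of the range of the group (Dixon's test). This was so in 3 of 102 groups of values, where about 5.1 are expected by chance. Gpx1 in adult western-diet replicate 2 was at 117 scaled TPM, while the 3 other hearts of that group lay between 57.8 and 62.2. Gsta4 in aged western-diet replicate 4 was at 75, while the 4 others lay between 52.3 and 58.4. Prdx1 in aged replicate 2 was at 214, while the 3 others lay between 198 and 200. The first 2 of these libraries had the lowest size factors of all, 0.682 and 0.779.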

How the results depend on the processing

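No paired analysis was possible because the replicate numbers follow accession order and pair no animals. Of the 17 calls among the 33 genes, 4 were kept without any 1 library: Gsr, Gstk1, Prdx2 and Prdx4 in aged western-diet against C57 hearts. Leaving out each library gave 0 to 0 calls for diet in aged hearts, 0 to 1 for age on the diet, 0 to 2 for aged against adult western-diet, 0 to 9 for aged against C57, 0 to 3 for adult western-diet against C57, 4 to 9 for aged western-diet against C57, and 3 to 11 for any group difference. Counts are given next in the order aged against adult western-diet (1 as reported), aged against C57 (6), adult western-diet against C57 (2), aged western-diet against C57 (8) and any group difference (8). No scaling gave 0, 0, 1, 4 and 4, quantile normalization 0, 1, 1, 5 and 6, the Y-linked covariate 0, 4, 0, 5 and 4, the atrial covariate 0, 3, 0, 3 and 2, and the libraries with Y-linked transcripts 0, 6, 0, 3 and 1. No filter gave 0, 4, 1, 8 and 7 and 1 call (Nox4) for age on the diet, the length correction with a Y-linked covariate 0, 5, 1, 6 and 6, and a fit of the groups compared 1, 11, 0 and 4. A pseudocount of 0.1 and no variance trend each gave 0 for aged against adult western-diet. No other setting moved a count by over 1.5 times, and no called value changed sign. Of the 32 calls of other pathway genes, no scaling kept 5, the atrial covariate 12, the other settings 18 to 31, and the omission of C57 replicate 1 or 3 kept 14 and 13. For these losses the cause was not tested.

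No scaling moved the median of all genes by up to 0.27 and the split of higher to lower calls over all genes to 4 and 21 for diet (9 and 10 as reported), 149 and 13 for aged against adult western-diet (143 and 101), 204 and 21 for aged (819 and 463), 24 and 94 for adult western-diet (223 and 171) and 282 and 332 for aged western-diet (1404 and 1092) against C57. The length correction gave 172 and 133 for age on the diet (191 and 82) and 100 and 120 for aged against adult western-diet. With TPM alone, counting error at low levels such as Nox4 cannot be given.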
